A study of Nasonia vitripennis with 51 samples.

Results

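In the parasitoid wasp Nasonia vitripennis, 938 CpGs were far more methylated in heads than in bodies of females fed sucrose. They were chosen by measured values. A CpG was eligible when it had reads in all 18 sucrose samples and at least 10 reads in 7 or more sucrose samples of each tissue, and it entered the set when its mean methylation level was at least 20 percentage points higher in the 9 sucrose head samples than in the 9 sucrose body samples. The methylation level of a CpG is the share of its reads that were methylated. Of 3769272 eligible CpGs, 938 (0.0249%) met the rule, and 25 met its mirror image, with heads at least 20 points lower. The sucrose samples are therefore described without a test, and the difference between tissues was tested only in the 33 samples of females fed 5-aza-2'-deoxycytidine (5-aza-dC), which were not used to choose the CpGs.

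Whole-genome bisulphite sequencing had been done on 51 samples, each the genomic DNA of 10 pooled females of the AsymC strain, a wild-type laboratory strain cured of the bacterium Wolbachia. Heads made up 24 samples, and bodies (thorax with abdomen) 27. All females received 20% sucrose: for 24 h without additive (9 head and 9 body samples), for 24 h with 10 µM 5-aza-dC (7 heads, 9 bodies), or for 48 h with 10 µM 5-aza-dC (8 heads, 9 bodies). They were harvested 0, 24 or 48 h after feeding, with 3 samples for most combinations and 2 for the others. The age of the females was not used here. A head or a body holds many cell types, so a different mix of cells and a different level per cell cannot be told apart in these pools. The labels do not say whether a head pool and a body pool came from the same females, and each p-value between tissues treats them as independent.

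DNA methylation in Nasonia, as in other Hymenoptera, lies mostly at CpGs within the exons of a subset of genes, and the rest of the genome is nearly unmethylated. DNMT1 copies the mark to the new strand after replication and DNMT3 is classed as a de novo methyltransferase. 5-aza-dC is a cytidine analogue that is built into replicating DNA and traps these enzymes.

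Most of the set could be examined in 1 regime only, because reads were present at different CpGs in each. Of the 938 CpGs, 836 had reads in the 24 h 5-aza-dC samples and 221 in the 48 h samples. With the requirement of 10 reads in at least 5 heads and 5 bodies of a regime, 764 were tested after 24 h, 221 after 48 h and 116 in both, while 69 were tested in neither. Total reads over the CpGs ranged from 74522289 to 127891001 in sucrose samples, from 17825668 to 200008536 after 24 h and from 10955117 to 78984302 after 48 h. Values of under 10 reads were left out of tests and of single-CpG 5-aza-dC levels, but kept in the means per sample. They were 93.7% of the values of the tested CpGs in replicate 1 of the 24 h 5-aza-dC heads taken at 48 h, and 64.9% in the next lowest sample of that regime. They were 95.0% in replicate 1 of the 48 h 5-aza-dC bodies taken at 0 h. At CpGs with a sucrose mean under 2%, where methylated reads measure the background, 24 h heads had 1.35% ± 0.582 (SD, n = 7) and 24 h bodies 1.26% ± 1.07 (n = 9). The 48 h heads had 1.91% ± 0.823 (n = 8) and the 48 h bodies 2.98% ± 2.89 (n = 9).

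In sucrose samples, most of these CpGs were more than 50% methylated in heads and intermediate in bodies. The median level over the 938 CpGs was 78.3% in heads (28.9% to 98.0%) and 53.3% in bodies (6.57% to 77.0%), and the median difference was 23.3 points. Heads were at 80% or above at 420 of the CpGs (44.8%), between 50% and 80% at 465 (49.6%) and under 50% at 53, and bodies lay between 40% and 70% at 689 (73.5%). A body level under 20% was rare, with 23 CpGs. The difference was 30 points or more at 104 CpGs and was under 25 points at 603, so most members lay near the limit. The 3 members nearest to it were position 7623081 of chromosome 3 (73.9% in heads, 53.9% in bodies), position 526667 of scaffold GL340989 (86.7% and 66.7%) and position 12630279 of chromosome 1 (91.4% and 71.4%), each with a difference of 20.0 points. Just outside were position 9416970 of chromosome 5, position 34257 of scaffold GL340828 and position 4085275 of chromosome 1, with differences of 19.996, 19.99 and 19.978 points.

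The first question was whether the difference between tissues was present in samples that had not chosen the CpGs. It was: over the 116 CpGs tested in both 5-aza-dC regimes, every head sample had a higher mean than every body sample. In the 24 h regime the mean level per sample was 70.5% at the lowest, 73.2% at the median and 76.8% at the highest in 7 head samples, against 50.8%, 55.3% and 58.2% in 9 body samples. In the 48 h regime the head samples had 70.4%, 72.8% and 74.0% (n = 8) and the body samples 50.5%, 54.1% and 57.7% (n = 9). The groups did not overlap in either regime. These means kept values of under 10 reads. The highest 24 h head mean, 76.8%, came from a sample with a median of 5 reads at these CpGs. The lowest, 70.5%, came from one with a median of 10 reads. In the 48 h regime, 1 body sample (55.6%) had a median of 4 reads. Within the 6 combinations of regime and harvest time, the heads exceeded the bodies by 16.7 to 20.3 points.

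**Figure D1:**
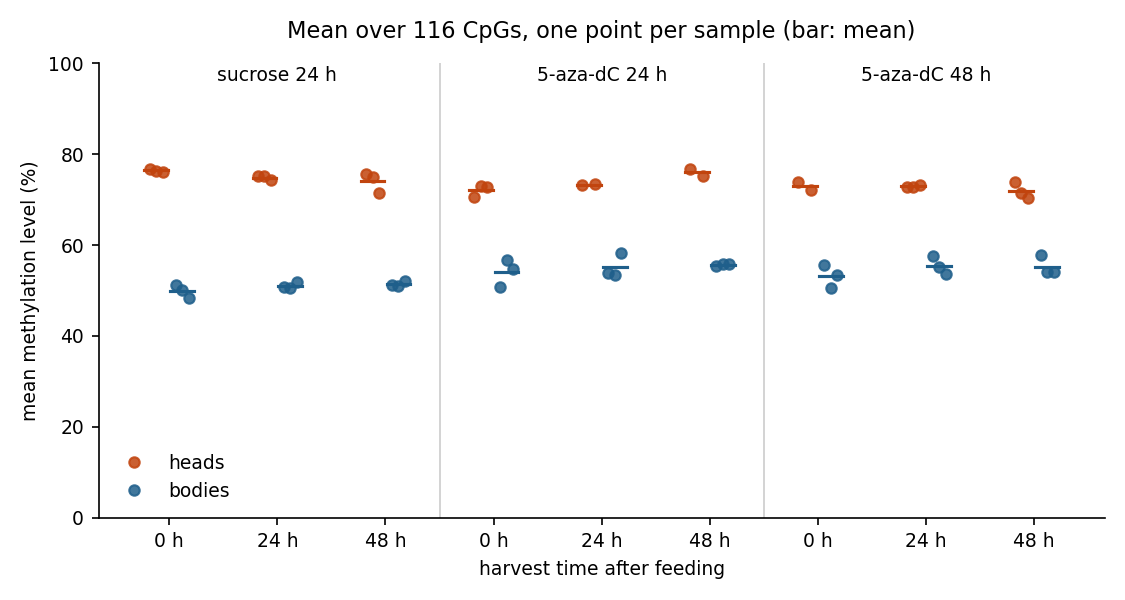
Mean methylation level (%, vertical axis from 0 to 100) over the 116 CpGs tested in both 5-aza-dC regimes, by regime and harvest time (horizontal axis), with one point per sample and a bar at each group mean. Heads lie between 70.4% and 76.8% and bodies between 48.4% and 58.2% in all 51 samples, the sucrose samples, which chose the CpGs, included. Values of under 10 reads are kept in these means.

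CpG by CpG, 88 of the 116 (75.9%) were called higher in heads and 0 lower (limma on arcsine-square-root levels over 33 samples, Benjamini-Hochberg adjusted p under 0.05). Among all 11879 CpGs tested in the same fit, 4.76% were called in either direction and 4.38% higher in heads. The share outside the set differed with the sucrose body level. Where sucrose bodies had 40% to 60%, 14.8% of the other CpGs were called higher, against 78.8% of the set. At 60% to 80% the shares were 31.3% and 86.2%, and at 20% to 40% they were 1.24% and 52.6%. Of CpGs with a sucrose difference of 10 to 15 points, 30% were called higher. Of those with 15 to 20 points, also outside the set, 52% were. The median difference over the 116 CpGs was 18.3 points, against -0.00860 points over all CpGs tested. The difference was above 0 at 114 of the 116 (98.3%), a direction that 49.9% of all tested CpGs had, and it reached 20 points at 47 (40.5%, against 0.707%). Single samples still scattered: at only 7 CpGs did every head value lie above every body value, which 0.0589% of all tested CpGs did. The SD between samples of one combination was 11.9 points in heads and 13.1 points in bodies, where read counts alone would give 9.22 and 10.5 points.

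The tested set was far larger in the 24 h regime. Of 764 CpGs, 743 (97.3%) had a higher mean in heads and 62 (8.12%) were called higher, with 0 called lower (limma, adjusted p under 0.05). Over all 43913 CpGs tested there, 67.7% had a difference above 0 and 0.257% were called. The median difference was 17.8 points over the set and 2.45 points over all tested CpGs. An unadjusted p under 0.05 with heads higher was reached by 515 of the 764 (67.4%, against 11.5% of all tested). The heads lay wholly above the bodies at 160 CpGs (20.9%, against 1.38%), and the difference reached 20 points at 300 (39.3%, against 1.94%). The number of calls rested on single samples. It was 7 without replicate 2 of the heads taken at 48 h, and 1 without the bodies whose titles carry another or no harvest time, when 1 CpG was called among all 43913. In that last fit 732 of the 764 differences were above 0 and 388 had an unadjusted p under 0.05 with heads higher.

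After 48 h of 5-aza-dC, 215 of 221 CpGs (97.3%) had a higher mean in heads and 54 (24.4%) were called higher, with 0 called lower (limma, adjusted p under 0.05). Among all 21826 CpGs tested there, 39.5% had a difference above 0, 0.674% were called and 0.586% were called higher in heads. The median difference was 17.2 points, against -1.48 points over all tested CpGs. The difference reached 20 points at 82 CpGs (37.1%, against 0.756%) and the heads lay wholly above the bodies at 32 (14.5%, against 0.449%). An unadjusted p under 0.05 with heads higher was reached by 153 (69.2%, against 6.31%). The count of calls was 14 without replicate 3 of the bodies taken at 24 h and 115 after centring each sample on its median. Of the 116 CpGs tested in both regimes, 111 had a difference above 0 in each regime alone.

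**Figure D2:**
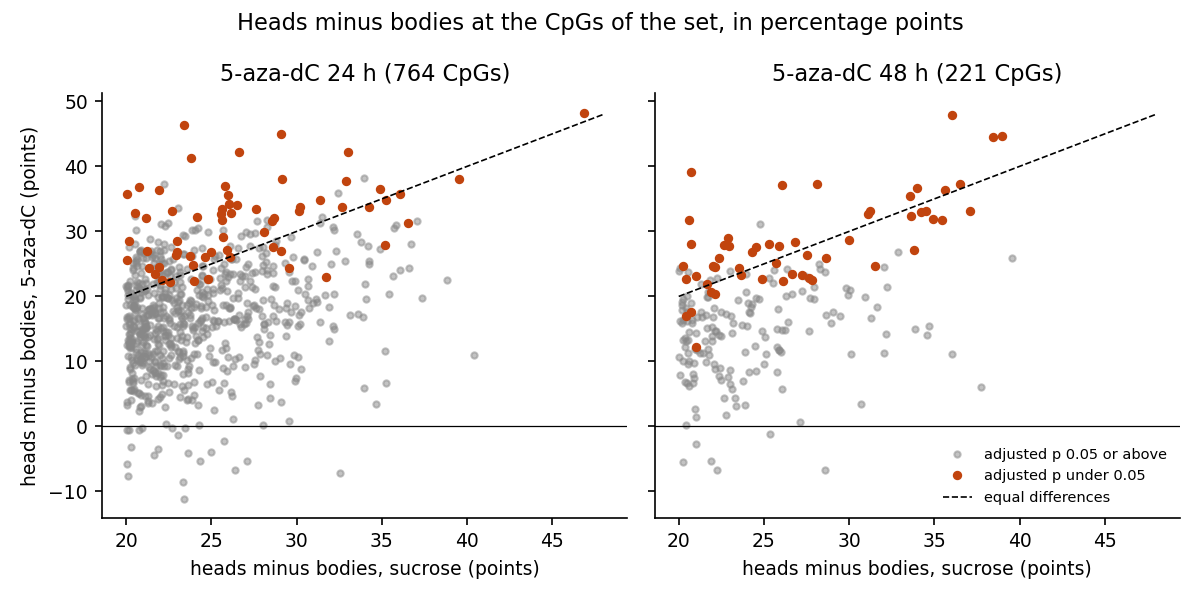
Difference between heads and bodies in 5-aza-dC samples (percentage points, vertical axis) against that in sucrose samples (horizontal axis, 20 points and above by the rule), for the 764 CpGs tested after 24 h (left) and the 221 tested after 48 h (right). Orange points have an adjusted p under 0.05, the dashed line marks equal differences, and 599 and 182 points lie below it.

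The differences were smaller than in the sucrose samples at 599 of 764 CpGs after 24 h and 182 of 221 after 48 h. Over the 116 CpGs, sucrose heads had a mean of 75.1% ± 1.58 (SD, n = 9) and sucrose bodies 50.8% (48.4% to 52.2%, n = 9). The 24 h 5-aza-dC heads had 73.6% ± 1.97 (n = 7) and the 48 h heads 72.6% ± 1.19 (n = 8). Bodies had 55.0% ± 2.16 and 54.7% ± 2.21 in the same order (n = 9 each). CpGs chosen for a large difference in one set of samples will on average have a smaller one in another, so these regimes were not compared with sucrose by a test and nothing is read from the gap.

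CpGs with a larger sucrose difference also had a larger one in the 5-aza-dC samples, and the step at 20 points marked no break. After 24 h, the median difference was 9.39 points at the 2470 tested CpGs with a sucrose difference of 10 to 15 points and 13.2 points at the 1155 with 15 to 20 points, none of them in the set. It was 16.4 points at 20 to 25, 18.9 points at 25 to 30 and 24.1 points at 30 or more (501, 186 and 77 CpGs). After 48 h the same classes had medians of 7.93, 12.7, 15.7, 20.4 and 26.4 points. The share called higher rose from 0.567% in the lowest of these classes to 19.5% in the highest after 24 h, and from 2.86% to 50.0% after 48 h. In the fit of both regimes, all 13 CpGs with a sucrose difference of 30 points or more were called.

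**Figure D3:**
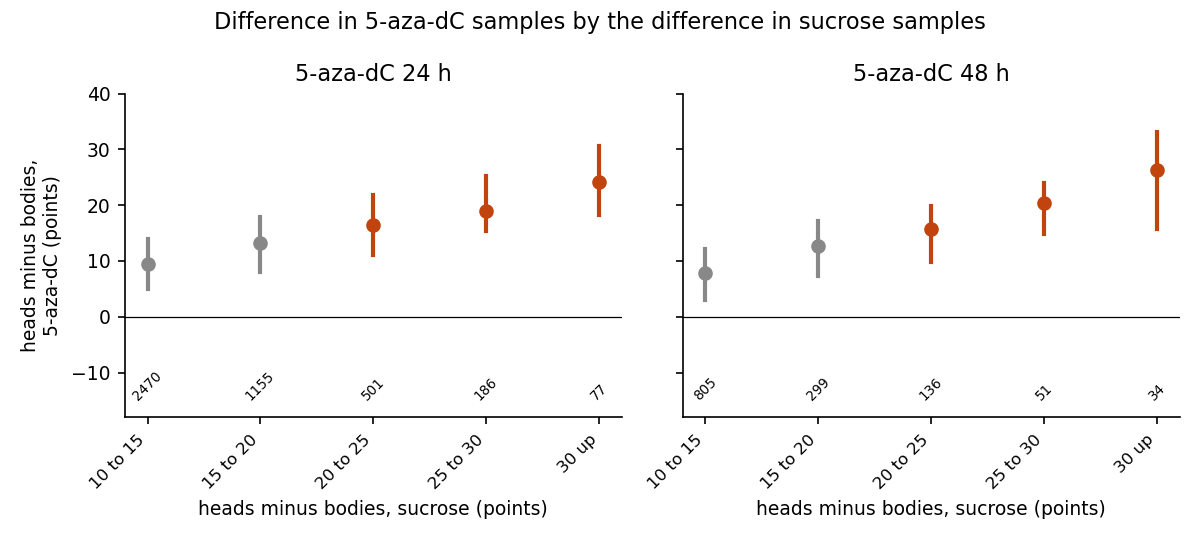
Median (point) and quartiles (line) of the difference between heads and bodies in 5-aza-dC samples (percentage points, vertical axis) for classes of the sucrose difference (horizontal axis), with the number of tested CpGs in each class above the axis. Orange classes belong to the set and grey ones lie below its limit. The median climbs from 9.39 to 24.1 points after 24 h and from 7.93 to 26.4 points after 48 h.

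Within the same range of sucrose body levels, the set had larger median differences than other CpGs, a contrast that was not tested. Where sucrose bodies had 40% to 60%, the range in which both had a similar median body level (51.8% and 50.4%), the 383 CpGs of the set tested after 24 h had a median difference of 19.5 points and the 1483 other tested CpGs 9.78 points. At 60% to 80% the medians were 16.1 points (231 CpGs) and 9.92 points (3165 others). At 20% to 40% they were 17.0 points (132 CpGs) and 2.63 points (4198 others). In these outer ranges the body levels were not alike, with medians of 65.2% in the set and 72.9% in the others at 60% to 80%, and 33.5% and 24.0% at 20% to 40%. After 48 h the corresponding medians were 19.7 against 6.90 points, 16.1 against 8.77 points and 14.0 against -2.54 points. In the same order of ranges, the shares called higher after 24 h were 8.88% against 0.877%, 9.09% against 0.695% and 4.55% against 0.0238% (limma). After 48 h they were 28.2% against 1.67%, 25.0% against 3.29% and 18.0% against 0.170%.

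The median difference was similar in size at each harvest time. Over the tested CpGs it was 18.5, 17.3 and 19.6 points at 0, 24 and 48 h after 24 h of 5-aza-dC. After 48 h of 5-aza-dC it was 19.9, 18.0 and 16.9 points. The 24 h 5-aza-dC heads taken at 48 h were 2 samples, and 1 of them lacked 93.7% of its values. In the 48 h regime, 1 body sample taken at 0 h lacked 95.0%. The same limit holds for counts over single combinations. Of the 112 CpGs with a value in all 6 combinations of regime and harvest time, 87 were higher in heads in every one, as were 6.90% of the 11457 other CpGs with such values. An F test among the harvest times (limma) called 0 of the 116, with 5 at an unadjusted p under 0.05, and 0.0253% of all tested CpGs. A quasi-binomial regression on the reads also called 0, with 6 at an unadjusted p under 0.05. The test of whether the difference between tissues itself changed between 24 h and 48 h of 5-aza-dC called 0 of the 116, and 0% of all 11879 CpGs. Of the 116, 3 had an unadjusted p under 0.05 by limma and 7 by the quasi-binomial model, which also called 0. These tests do not show that the difference was equal in both regimes.

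Averaged over tissues, 4 of the 116 CpGs differed between 48 h and 24 h of 5-aza-dC, where 1.22% of 11876 tested CpGs were called (limma). Of these, 3 were lower after 48 h (0.446% of all tested CpGs) and 1 was higher (0.775%). The test had tissue in its model. The levels below are plain means over all samples of a regime, and the share of heads differed between regimes. Their SDs include the difference between tissues. At position 903106 of chromosome 1 the level was 64.2% ± 15.5 (SD, n = 12) after 24 h and 44.3% ± 16.5 (n = 16) after 48 h (adjusted p = 0.0385, limma). At position 23500936 of chromosome 2 it was 72.2% ± 9.45 (n = 15) and 54.1% ± 12.8 (n = 16), with an adjusted p of 0.0188 by limma. Position 24923614 of chromosome 2 had 42.2% ± 16.9 (n = 12) and 23.7% ± 11.7 (n = 16), with an adjusted p of 0.0229 by limma. Position 25363034 of chromosome 3 was higher after 48 h, with 49.4% ± 19.2 (n = 14) and 71.5% ± 15.2 (n = 16), and an adjusted p of 0.0231 by limma. By tissue, its heads had 69.4% (n = 5) and 83.9% (n = 8), and its bodies 38.3% (n = 9) and 59.2% (n = 8). Feeding lasted longer in the 48 h regime, and neither that nor any batch that followed the regime can be told apart from the longer exposure. The quasi-binomial model called 1 of the 116, and limma without the filter on the mean level called 0, with 21 at an unadjusted p under 0.05.

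The 12 CpGs named for the largest sucrose differences among those tested in both regimes were all called higher in heads in the fit of both regimes, and all had higher heads in each of the 6 combinations. Of all CpGs tested in that fit, 4.38% were called higher, and 6.90% of the other CpGs with values were higher in all 6 combinations. Alone, the 24 h regime called 4 of the 12 (0.257% of all tested) and the 48 h regime 8 (0.586% called higher). At 4 of the 12, every 5-aza-dC head value of at least 10 reads lay above every such body value (0.0589% of all tested). Some samples had no such value at these CpGs.

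Position 6715244 of chromosome 3 had the lowest adjusted p of the 12. Heads had 85.7% at the lowest, 93.0% at the median and 100% at the highest after 24 h (n = 5, median 44 reads), and bodies 15.8%, 58.7% and 75% (n = 9, median 28 reads). After 48 h heads had 80%, 95.7% and 97.4% (n = 8) and bodies 20.0%, 42.9% and 66.7% (n = 8). Heads were nearly fully methylated and bodies were spread over a wide range below them, with no overlap. Over both regimes the means were 93.9% ± 5.64 (SD, n = 13) and 52.4% ± 17.9 (n = 17), and the estimate on the arcsine scale was 0.565 (SE 0.0562, adjusted p = 3.51e-09, limma).

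Position 4846031 of chromosome 3 had the largest sucrose difference of the 12, 39.5 points (77.5% ± 10.2 in heads, 38.0% ± 10.8 in bodies, n = 9 each). Its 24 h heads had 66.2%, 80.6% and 95.0% at the lowest, median and highest (n = 6), and its 24 h bodies 24.3%, 44.3% and 54.5% (n = 9). The 48 h heads had 58.3%, 70% and 81.8% (n = 7) and the bodies 27.5%, 46.6% and 52.5% (n = 8). The tissues did not overlap in either regime. The estimate over both regimes was 0.341 (SE 0.0490, adjusted p = 1.25e-05, limma).

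Position 6714806 of chromosome 3 lay in the same group of neighbouring CpGs as position 6715244. It had 75%, 78.8% and 95.8% in 24 h heads (n = 6) and 26.3%, 48.3% and 68.8% in 24 h bodies (n = 9). After 48 h it had 79.0%, 82.6% and 91.4% in heads (n = 8) and 36.8%, 46.9% and 64.1% in bodies (n = 8). Again no head value fell to the level of a body value (estimate 0.385, SE 0.0450, adjusted p = 9.72e-08, limma).

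Heads were not near full methylation at every CpG of the 12. Position 8417291 of chromosome 3 had only 57.3% ± 11.3 in 5-aza-dC heads (SD, n = 13) and 22.9% ± 12.1 in bodies (n = 17), with an estimate of 0.370 (SE 0.0554, adjusted p = 2.63e-05, limma). The 48 h heads there reached from 27.0% to 72.7% and overlapped with the bodies, at 8.70% to 43.8%. Position 2273987 of scaffold GL341022 had 54.9% ± 10.5 (n = 13) in heads and 24.6% ± 9.10 (n = 16) in bodies, without overlap (adjusted p = 3.28e-05, limma). At position 2756276 of scaffold GL341019, heads had 68.9% ± 9.66 (n = 13) and bodies 36.3% ± 9.29 (n = 15), with an adjusted p of 6.55e-06 by limma.

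The remaining 6 of the 12 had differences of 13.3 to 30.1 points over both regimes. Position 6764159 of chromosome 3 (29.8 points), position 10528819 of chromosome 2 (29.3 points), position 260956 of scaffold GL340852 (24.4 points) and position 9554022 of chromosome 4 (30.1 points) had adjusted p-values of 1.03e-07 to 0.000539 (limma). Position 24923623 of chromosome 2 (19.2 points, adjusted p = 0.0128, limma) was not called without the filter on the mean level (adjusted p = 0.109). Position 4085419 of chromosome 5 had a sucrose difference of 30.1 points but only 13.3 points in the 5-aza-dC samples (adjusted p = 0.0233, limma), with 85.6% ± 8.66 in heads (n = 14) and 72.3% ± 8.23 in bodies (n = 17). It was not called without replicate 2 of the 24 h 5-aza-dC heads taken at 48 h (adjusted p = 0.0938, limma) or without replicate 3 of the 48 h 5-aza-dC heads taken at 24 h (adjusted p = 0.0508). Leaving out the 6 body samples with other titles gave an adjusted p of 0.0614, and dropping the filter on the mean level one of 0.274.

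The 5 CpGs at the low end showed no call between tissues (adjusted p of 0.731 to 0.878, limma). Position 989447 of chromosome 3 had the lowest difference, -5.07 points, with 26.0% ± 12.6 in 5-aza-dC heads (SD, n = 13) and 31.1% ± 12.9 in bodies (n = 17). Its sucrose heads had ranged from 6.67% to 77.8% (n = 8). Position 163251 of scaffold GL341007 had 64.8% ± 12.6 (n = 10) and 67.1% ± 8.41 (n = 16), a difference of -2.32 points, which was 1.32 points at a minimum of 5 reads. Position 253304 of scaffold GL341035 had 55.1% ± 24.7 (n = 13) and 52.7% ± 18.6 (n = 16). The other two were neighbours, at positions 24923616 and 24923614 of chromosome 2, with differences of 1.63 and 2.58 points, a few bases from position 24923623, which was called. The sign at 3 of the 5 rested on single samples. Leaving out 1 sample gave -0.84 to 6.35 points at position 253304, -0.71 to 3.68 points at position 24923616 and -0.22 to 5.33 points at position 24923614. Single values were widely spread: at position 24923614, 24 h heads ran from 12.8% to 66.7% (n = 5) and 48 h heads from 0% to 44.2% (n = 8).

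The CpGs of the set were scattered over the assembly, with many in small groups. Chromosome 3 held 222 of them, chromosome 1 held 195, chromosome 2 held 175, chromosomes 4 and 5 held 63 and 57, and 226 lay on 61 unplaced scaffolds. As a share of the eligible CpGs with a sucrose mean of at least 10%, they made up 2.48% on chromosome 3, 2.00% on chromosome 1, 1.85% on chromosome 2, 1.45% on chromosome 4, 2.16% on chromosome 5 and 1.05% on the scaffolds. A total of 344 CpGs (36.7%) had another of the set within 300 bases, and joining those gave 139 groups and 594 CpGs alone. They lay among methylated CpGs: 694 (74.0%) had another CpG with a sucrose mean of at least 50% within 100 bases, against 82.3% of the 14174 CpGs of that level outside the set. Genes and exons are not given for any position, since the annotation at hand covers another assembly.

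Methylated CpGs within 30 bases of the set had larger differences between tissues, in the same direction, than those farther away, and beyond 30 bases the medians showed no decline with distance. Among CpGs outside the set with a sucrose mean of at least 50%, the 89 within 10 bases of a CpG of the set had a median difference of 10.7 points after 24 h. The 248 at 11 to 30 bases had 9.91 points, and the 732 at 31 to 100 bases 5.57 points. Over 100 and up to 300 bases, up to 1000 and up to 10000 bases the medians were 5.82, 5.91 and 5.60 points, and the 7358 CpGs over 10000 bases away had 5.29 points. After 48 h the medians were 13.6 points within 10 bases (31 CpGs), 8.94 points at 11 to 30 (72) and 4.54 points at 31 to 100 (224). They were 5.91, 5.26 and 5.47 points in the next 3 classes and 4.42 points over 10000 bases away (2426). These medians were not tested against each other. The classes also differed in mean sucrose level. For CpGs tested after 24 h it was 78.2% within 10 bases, 80.8% at 11 to 30 and 84.1% to 85.7% farther away. For those tested after 48 h it was 78.0%, 83.9% and 83.5% to 87.1%. The part of this level in the differences was not tested. Within 10 bases the heads were higher at 92.1% (24 h) and 96.8% (48 h) of these CpGs, and over 10000 bases away at 86.8% and 85.8%. CpGs that close share reads, so their values are not independent of those of the set, and the sucrose differences of the neighbours, 14.6 points within 10 bases and 5.00 points beyond 10000 bases for those tested after 24 h, were bounded by the choice of the set.

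The largest group had 13 CpGs of the set within 710 bases of chromosome 3, from position 6714535 to 6715244. In sucrose samples they had 83.2% to 96.3% in heads and 53.3% to 73.1% in bodies. After 24 h of 5-aza-dC, 8 of them could be tested, all had higher heads, by 3.20 to 35.8 points, and 7 were called (limma). After 48 h, 9 could be tested, with differences of 19.1 to 48.0 points, and 8 were called. Among all tested CpGs, 0.257% were called higher after 24 h and 0.586% after 48 h. The span held 20 eligible CpGs with a sucrose mean of at least 10%, so most of its methylated CpGs were in the set. The 3 others tested after 24 h had differences of 10.2 to 26.6 points.

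**Figure D4:**
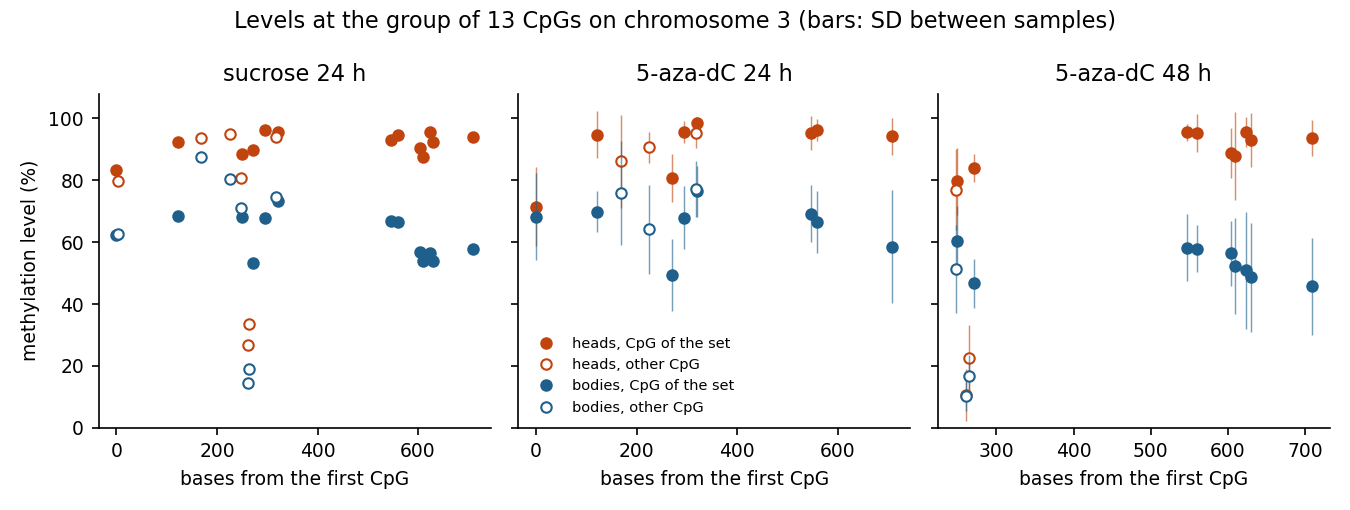
Methylation level (%, vertical axis) of heads (orange) and bodies (blue) along the group of 13 CpGs on chromosome 3 (horizontal axis, bases from its first CpG), as means over the samples of each regime with the SD between samples as bars in the 5-aza-dC panels. Filled points are CpGs of the set and open points other CpGs with a sucrose mean of at least 10%. Heads lie above bodies at all CpGs of the set shown.

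A second group of 6 lay about 50 kb further on, from position 6764159 to 6764500, and all 6 were tested after 24 h, with differences of 16.1 to 27.2 points and 3 calls (limma). Each of the other 3 groups named had 5 CpGs. On scaffold GL340974 (positions 153020 to 153113) 4 were tested after 24 h, with differences of 17.5 to 22.5 points and 1 call. On chromosome 3 (positions 16608629 to 16608797) all 5 were tested after 24 h, with differences of 4.44 to 25.8 points and 0 calls. On chromosome 1 (positions 28275111 to 28275310) 4 were tested after 48 h, with differences of 11.4 to 24.6 points and 1 call. The shares called higher among all tested CpGs were 0.257% after 24 h and 0.586% after 48 h.

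The groups of 13 and of 6 CpGs belonged to one stretch of chromosome 3 that held more of the set than any other place. The stretch also differed between tissues in read depth. It was picked out after its values were seen. The window of 100 kb from position 6700000 to 6799999 held 32 CpGs of the set among 54 with a sucrose mean of at least 10%, and the next highest window held 8 of 120. Read depth was compared in 18592 windows of 10 kb with at least 50 eligible CpGs, after dividing each sample by its mean. The ratio of bodies to heads in sucrose samples had a median of 0.999, with 1% of windows below 0.842 and 1% above 1.11, and it was 1.2 or higher in 20 windows (0.108%). There were 2 runs of 3 or more adjacent windows at 1.2 or higher. One of them, from position 6710000 to 6789999 of chromosome 3, had ratios of 1.25 to 1.45 and held 31 CpGs of the set.

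Over that stretch as a whole, the relative read depth did not overlap between tissues in any regime. Sucrose depth had drawn its edges, so the sucrose values were selected. Single windows did overlap, such as the last, from position 6780000, with ratios of 0.981 after 24 h and 1.09 after 48 h. Among all 18592 windows, sucrose bodies lay wholly above sucrose heads in 0.199%. Sucrose heads had 0.945 to 1.04 times their sample's mean (n = 9) and sucrose bodies 1.29 to 1.38 times (n = 9). After 24 h of 5-aza-dC heads had 0.944 to 1.01 (n = 7) and bodies 1.18 to 1.45 (n = 9), and after 48 h heads had 0.828 to 1.02 (n = 8) and bodies 1.17 to 1.32 (n = 9). The bodies thus had 1.35, 1.31 and 1.33 times the reads of the heads in the 3 regimes. In sucrose samples the ratio was 1.34, 1.38 and 1.34 at 0, 24 and 48 h. The profile along the chromosome rose over several windows to a peak and fell again on either side.

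The methylation difference was large over the same stretch. Of its 36 eligible CpGs with a sucrose mean of at least 50%, 29 were in the set. Its 26 CpGs of the set tested after 24 h had a median difference of 25.9 points, 15 of them called. The 10 tested after 48 h had 37.2 points, 9 of them called (limma). Over all tested CpGs, 0.257% were called higher after 24 h and 0.586% after 48 h. The stretch's 7 others with a sucrose mean of at least 50% included 5 tested after 24 h, at 8.93 to 26.6 points. At the 14 eligible CpGs of that level within 100 kb on either side, of which 2 belonged to the set, the 12 tested after 24 h had a median of 8.52 points and 0 calls. The highest difference of the whole set lay here. At position 6749040, named after its values were seen, sucrose heads had 94.5% ± 4.45 (SD, n = 9) and bodies 47.6% ± 8.11 (n = 9). After 24 h of 5-aza-dC its 5 head samples had 86.8% to 97.4% and its 9 body samples 33.9% to 50.0%, a difference of 48.2 points (adjusted p = 0.000322, limma).

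Unmethylated reads differed more between tissues there than methylated reads did. At the 26 CpGs of the stretch with reads after 24 h, methylated reads per CpG, as a multiple of the sample's mean depth, were 0.849 ± 0.131 in the 7 head samples and 0.801 ± 0.143 in the 9 body samples (mean ± SD), which overlapped. Unmethylated reads were 0.114 ± 0.0239 in heads and 0.490 ± 0.0922 in bodies, 4.29 times as many and without overlap. At the CpGs of the set outside this stretch, methylated reads were 0.698 ± 0.0477 in heads and 0.482 ± 0.0498 in bodies, and unmethylated reads 0.254 ± 0.0179 and 0.383 ± 0.0532 (810 CpGs). There the bodies had 0.690 times the methylated reads of the heads, against 0.943 times in the stretch. In sucrose samples the ratio for methylated reads was likewise higher in the stretch, 0.798 (31 CpGs) against 0.653 elsewhere (907 CpGs). After 48 h of 5-aza-dC the order was the opposite, with 0.676 in the stretch (10 CpGs) and 0.731 elsewhere (211 CpGs). For unmethylated reads the ratio was higher in the stretch in every regime, at 4.80 against 1.88 in sucrose samples, 4.29 against 1.51 after 24 h and 5.58 against 1.56 after 48 h. All these ratios follow from the methylation levels and the read depth, and are no separate result. Sucrose levels chose the set, and sucrose depth drew the edges of the stretch.

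**Figure D5:**
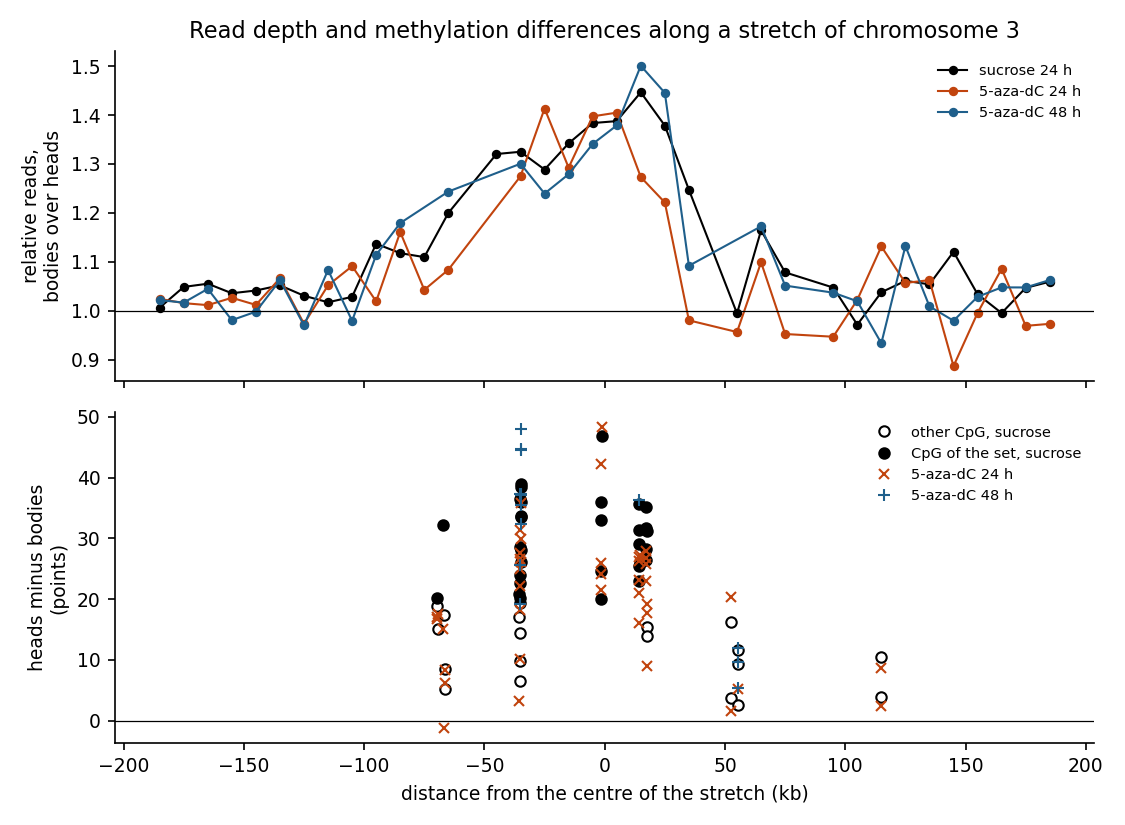
Top, ratio of relative read depth in bodies to that in heads (vertical axis) in windows of 10 kb along chromosome 3, by distance from the centre of the stretch (kb, horizontal axis), for sucrose, 24 h and 48 h 5-aza-dC samples. Bottom, difference between heads and bodies (percentage points) at CpGs with a sucrose mean of at least 50%, filled for the set in sucrose samples, open for others, with crosses and plus signs for the 24 h and 48 h regimes. In sucrose samples, depth in bodies and the methylation difference are both high within about 40 kb of the centre.

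The part of the read depth in these differences was not tested. Without the 31 CpGs of the stretch, 47 of 738 CpGs were called after 24 h, 45 of 211 after 48 h and 83 of 111 in both regimes (limma). Over all tested CpGs, the shares called higher were 0.257%, 0.586% and 4.38%. The median differences without the stretch were 17.5, 16.9 and 17.8 points. Over the 779 CpGs of the set in windows that could be measured, the median ratio was 0.998, against 0.997 for the 11559 other CpGs with a sucrose mean of at least 50%. A ratio of 1.2 or more applied to 31 of the 779 (3.98%) and 7 of the 11559 (0.0606%). All of these lay in the stretch, whose edges this ratio had drawn. Of the 12 CpGs named for the largest sucrose differences, positions 6714806, 6715244 and 6764159 lay in the stretch. The window of position 4846031 on the same chromosome had a ratio of 1.16 in sucrose samples, 1.17 after 24 h and 1.09 after 48 h of 5-aza-dC. The other 8 had sucrose ratios of 0.935 to 1.02. Among these, the windows of positions 2273987, 10528819 and 260956 held 41, 43 and 48 eligible CpGs, under the minimum of 50. The second run of windows, from position 2330000 to 2409999 of chromosome 1, had the highest ratios, 1.27 to 1.67. It held 0 CpGs of the set and 0 eligible CpGs with a sucrose mean of at least 50%, among 1475 eligible CpGs.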

How the data were processed

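The authors deposited 1 table of 4150376 CpGs with the methylated and the total read count of each sample at each CpG, not normalized. Per the submitters' processing notes, cutadapt 1.12, Bismark 0.16, Bowtie2, SAMtools, methylKit 0.99.3 and R 3.3.1 were used; the genome build is not given in the sources used here. Groups follow the labels' regime, harvest time and tissue. The titles of 9 body samples give another harvest time or none, and the characteristics were used. Replicates are separate pools per the labels, numbered here in the order of the samples.

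The CpGs and lists were chosen with earlier results of these data known. CpGs tested had a sucrose mean of at least 10% and at least 10 reads in 5 or more heads and 5 or more bodies of each regime fitted. At 10 reads, 1 read moves a level by 10 points. Arcsine-square-root levels were fitted with limma 3.58.1 (R 4.3.3; lmFit and eBayes, no trend; tissue plus 1 term for every regime and harvest time), two-sided, and p-values were adjusted over all CpGs tested (threshold 0.05). Differences in points are between unweighted means of samples. Alternatives were coverage minima of 5 and 20 reads, centring on the median, no filter on the mean level, leaving out samples, and a quasi-binomial model (Python 3.11.15, numpy 2.4.6, scipy 1.17.1). Both models were tested on simulated data. The reference table's gene coordinates belong to another assembly (on chromosome 3 the last CpG lies at 27036776 and the last gene ends at 24756921), so no genes, sequences or gene groups are given. CpGs named were the 12 with the largest sucrose difference tested in both regimes, the 5 with the lowest 5-aza-dC difference there, the 3 on each side of the limit, the 5 largest groups, and those called between regimes.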

Additional observations from a re-analysis of the deposited data

Results flagged for a closer look

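Single samples stood far from the other samples of their regime and tissue at 9 of 126 groups of values examined, where chance gives about 1 in 20. Among the means over the 116 CpGs, replicate 3 of sucrose heads harvested at 48 h was low, at 71.4%, with the other 8 between 74.2% and 76.7%. At position 10528819 of chromosome 2, replicate 1 of sucrose bodies harvested at 48 h had 85.7% and the others 27.3% to 56.7%. At position 24923616 of chromosome 2, replicate 2 of the same group had 14.3% and the others 41.2% to 65.9%.

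In the 24 h regime, replicate 2 of heads harvested at 24 h was low at position 2756276 of scaffold GL341019 (50.0%, others 69.8% to 74.6%) and high at position 6714806 of chromosome 3 (95.8%, others 75% to 80%). Replicate 1 of bodies harvested at 0 h had 15.8% at position 6715244 of chromosome 3, where the others had 52.0% to 75%. In the 48 h regime, replicate 1 of heads harvested at 48 h had 80% at position 6715244 of chromosome 3 (others 92.6% to 97.4%). Replicate 1 of heads harvested at 0 h had 81.8% at position 6764159 of that chromosome (others 92.3% to 100%), and replicate 1 of bodies harvested at 48 h had 64.1% at position 6714806 (others 36.8% to 47.4%). Over both 5-aza-dC regimes, the calls at positions 2756276, 6714806, 6715244, 6764159 and 10528819 held when any 1 5-aza-dC sample was left out.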

How the results depend on the processing

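The count of CpGs called higher in heads over both 5-aza-dC regimes was 88 and stayed within 1.5 times of that under each alternative run (62 to 95), and the median difference lay between 17.5 and 19.4 points. In no alternative was a CpG of the set called lower in heads. Counts within one regime moved, and the cause was not tested. For 24 h, 62 became 21 after centring, 21 without the filter on the mean level, 1 without the 6 body samples with other titles and 166 by the quasi-binomial model. For 48 h, 54 became 25 at a minimum of 5 reads, 11 without that filter, 115 after centring and 17 without those body samples. The 4 CpGs called between 48 h and 24 h became 0 without the filter, 1 without those body samples and 1 by the quasi-binomial model.

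Leaving out 1 sample gave 82 to 88 calls over both regimes with a median difference of 17.6 to 19.1 points, 7 to 74 calls for 24 h, 14 to 53 for 48 h, 1 to 4 between regimes and 0 for harvest times and for tissue by regime. For 24 h of 5-aza-dC, the count fell to 23 and 24 without replicates 1 and 3 of bodies at 0 h, 29 without replicate 1 of bodies at 24 h or at 48 h, 21 and 19 without replicates 2 and 3 of heads at 0 h, 28 without either replicate of heads at 24 h, and 7 without replicate 2 of heads at 48 h. For 48 h of 5-aza-dC, it fell to 19 without replicate 2 or 3 of bodies at 0 h, 28, 23 and 14 without replicates 1, 2 and 3 of bodies at 24 h, and 21, 17 and 28 without those of bodies at 48 h. It fell to 19 and 23 without replicates 1 and 2 of heads at 0 h, 30, 29 and 24 without replicates 1, 2 and 3 of heads at 24 h, and 24 and 28 without replicates 2 and 3 of heads at 48 h. Between regimes it fell to 1 without replicate 1 of 24 h-fed heads at 24 h, and to 2 without replicate 1 of 24 h-fed bodies at 48 h, replicate 3 of 24 h-fed heads at 0 h, replicate 2 of 24 h-fed heads at 48 h or replicate 2 of 48 h-fed heads at 0 h. An alternative chosen after seeing the data, leaving out the 3 samples of lowest coverage, gave 85, 61 and 53 calls for both regimes, 24 h and 48 h. No paired analysis was possible because the labels number the samples in 1 series and pair no head pool with a body pool; pools that share females would not be independent, which was not tested. Depth limits single CpGs: 69 of the 938 could not be tested.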
